A study of Mus musculus with 16 samples.

Results

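Uterine regulatory T cells (Treg) of mice in early pregnancy were compared with uterine Treg of non-pregnant mice. The comparison holds 8 of the 16 libraries of the series, chosen by their labels: 4 of pregnant and 4 of non-pregnant uterine Treg. All mice were on a BALB/c background and carried the Foxp3IRES-GFP reporter allele, which makes cells that transcribe Foxp3 green, so the controls carry the reporter too. The pregnant uterine Treg were labelled as day 6, 7 and 8 of pregnancy in their source, while the titles of 3 of the 4 samples run to a later day (9, 10 and 11). Both uterine Treg groups were sorted as CD4+Foxp3+CD25- cells from the uterus. Each non-pregnant library came from a pool of 20 mice and each pregnant library from a pool of 3 to 8, so the replicates are pools of animals. The remaining 8 libraries, uterine CD4+Foxp3- conventional T cells (CD4conv) and CD4+Foxp3+CD25+ Treg of the paraaortic lymph nodes that drain the uterus, are from non-pregnant mice and appear only beside results. No ages are in the labels used here.

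Sequencing was done in 2 batches that coincide with pregnancy. Pregnant uterine Treg were sequenced in the first batch with CD4conv, and non-pregnant uterine Treg in the second batch with lymph node Treg. A difference between the pregnant and non-pregnant libraries therefore cannot be told apart from a difference between batches. The only check these data allow is to set the values of CD4conv (first batch, not pregnant) and lymph node Treg (second batch, not pregnant) beside each result, although both differ from uterine Treg in cell type or tissue.

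Treg restrain other T cells through surface receptors such as CTLA4, consumption of interleukin 2 and inhibitory cytokines, and depend on the transcription factor Foxp3. In the uterus they are known for their part in tolerance of the implanting embryo, which carries paternal antigens, and for tissue repair functions of Treg resident in organs. Type I interferons signal through transcription factors that bind a short DNA element in the promoters of interferon-stimulated genes and raise an antiviral program; decidual tissue of mice is known to show interferon signalling around implantation.

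Expression levels are given as CPM, the counts of a gene per 1e6 counts in its library, and replicate libraries are given in the order of their labels, 1, 2, 3 and 4 for pregnant and 1, 2, 3 and 5 for non-pregnant uterine Treg. Total counts ran from 3573761 to 15190212 in pregnant and from 2020507 to 5615096 in non-pregnant uterine Treg, a difference that did not pass its test (exact two-sided permutation p = 0.114, adjusted p = 0.571 over 5 measures of library composition). Reads in olfactory and vomeronasal receptor genes, which T cells do not use, give an estimate of reads spread evenly over all exons. Such reads would make up 9.94%, 35.3%, 8.69% and 53.6% of counts in the pregnant and 16.8%, 11.6%, 33.9% and 34.9% in the non-pregnant libraries. A high share lowers the CPM of every gene that T cells do use. For that reason each gene was also fitted among the 4723 tested protein-coding genes above that background, with libraries scaled on those genes alone. Log2 fold changes, given as pregnant over non-pregnant with their standard error, come from that fit where the gene is in it and otherwise from the fit over all 30096 genes tested.

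Both uterine Treg groups carried the transcripts that define Treg. Foxp3 (chromosome X, 7573644 to 7595245, GRCm38 with GENCODE M21, as for all positions here) was at 677, 216, 814 and 192 CPM in pregnant and 394, 714, 331 and 227 CPM in non-pregnant uterine Treg, against 0.503 to 3.26 CPM in CD4conv. The 2 uterine groups overlapped, with a log2 fold change of 0.20 ± 0.42 (95% interval -0.68 to 1.08; unadjusted p = 0.635, edgeR). Cd3e, a chain of the T cell receptor complex, was at 957, 492, 1014 and 184 CPM in pregnant and 1192, 1061, 548 and 365 CPM in non-pregnant uterine Treg. Cd4 was at 551, 199, 667 and 94.6 CPM in pregnant and 674, 448, 256 and 189 CPM in non-pregnant uterine Treg, and Ptprc, which encodes the leukocyte antigen CD45, at 2731, 1306, 2880.5 and 782 CPM in pregnant and 2368, 2428, 1181 and 993 CPM in non-pregnant uterine Treg. In all 4 genes the pregnant and non-pregnant libraries overlapped. Il2ra encodes CD25, by whose absence these cells were sorted. Its level was 108, 125, 190.2 and 76.7 CPM in pregnant and 125, 111, 93.4 and 54.4 CPM in non-pregnant uterine Treg, between the 17.4 to 27.2 CPM of CD4conv and the 221 to 367 CPM of lymph node Treg sorted as CD25+.

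No gene passed an adjusted p of 0.05 in either fit with edgeR: 0 of 30096 genes were higher and 0 lower over all genes, and 0 of 4723 higher and 0 lower above background (0.0% of each). The lowest adjusted p above background was 0.316. At an unadjusted p under 0.05, 533 genes were higher and 289 lower over all genes (1.77% and 0.96%), and 173 were higher and 128 lower above background (3.66% and 2.71%). DESeq2 at an adjusted p of 0.05 called 5 genes higher (Fundc1, Rtp4, Ifit3, mt-Atp6 and mt-Co3) and 2 lower (Nol6 and Pim3) above background. Over all genes it called 7 higher and 11 lower. Differences below are therefore given as values with their intervals, and none of the named genes passed the adjusted test with edgeR. Fewer cells of a type and less RNA per cell cannot be told apart in such bulk libraries.

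**Figure D1:**
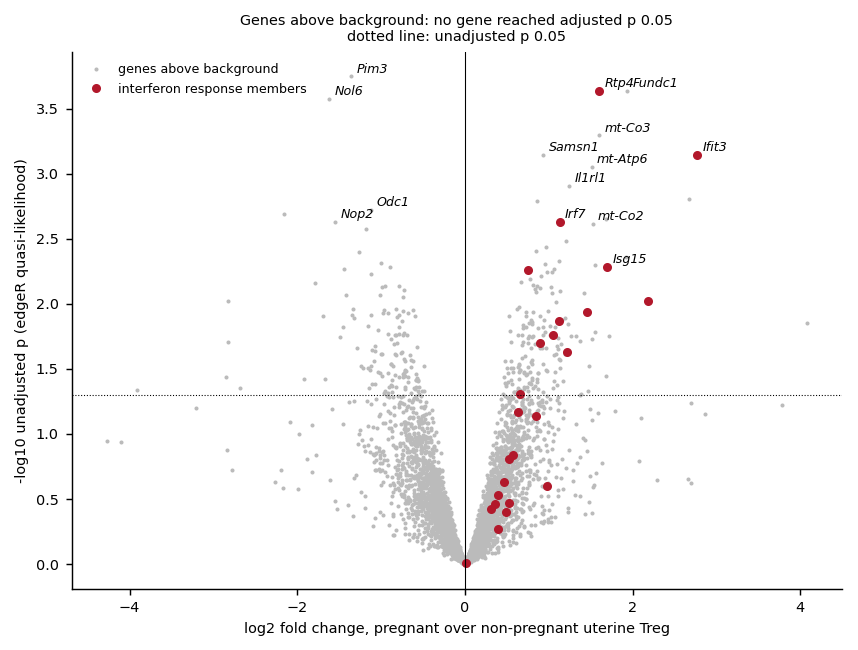
Log2 fold change of pregnant over non-pregnant uterine Treg (horizontal axis) against -log10 of the unadjusted edgeR p (vertical axis) for the 4723 genes above background, grey, with the 25 interferon response members among them in red. The 25 red points all lie to the right of 0, up to 2.77 for Ifit3, while 50.4% of all genes above background do.

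Among 23 lists of cell programs, the interferon response had the highest median fold change in both fits. Its genes are induced by interferon receptors in nearly every cell type. Of its 30 members, chosen with earlier results of these data known, 30 of 30 had a positive log2 fold change over all genes, against 56.5% of all genes tested, and their median was 0.90 against 0.105 for all genes. At an unadjusted p under 0.05, 7 of 30 were higher and 0 lower, beside 1.77% of all genes higher. Above background, 25 of 25 members were positive, their median was 0.76 against 0.0035 for all genes, and 12 of 25 were higher at an unadjusted p under 0.05, beside 3.66%. In 6 of the 25 the pregnant libraries all lay above the non-pregnant ones, beside 0.868% of genes above background. With libraries scaled on genes above background this count was 9, beside 1.8%. In 0 of the 25 did the pregnant libraries all lie below the non-pregnant ones, plain or scaled, beside 0.72% and 1.46% of genes above background. None of the 30 passed the adjusted test (0.0% of all genes did).

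Ifit3 (chromosome 19, 34583531 to 34588731), an antiviral protein of the IFIT family, was at 22.8, 17.1, 59.8 and 32.2 CPM in pregnant uterine Treg, against 3.19, 4.27, 5.09 and 7.92 CPM in non-pregnant uterine Treg. All 4 pregnant libraries exceeded all 4 non-pregnant ones, with a log2 fold change of 2.77 ± 0.68 (95% interval 1.33 to 4.20; unadjusted p = 0.00072, adjusted p = 0.486, edgeR). Reads of Ifit3 can be shared with its near-identical neighbour Ifit3b, which was at 15.97, 4.597, 18.9 and 1.68 CPM in pregnant and 0, 3.38, 9.34 and 11.9 CPM in non-pregnant uterine Treg, so the split between the 2 genes is uncertain. Ifit1, of the same family, was at 147, 54.96, 176 and 22.4 CPM in pregnant and 37.9, 1.603, 12.3 and 28.2 CPM in non-pregnant uterine Treg (log2 fold change 2.19 ± 0.75, unadjusted p = 0.00945), with overlap only through pregnant uterine Treg 4, the library with the most background. Isg15 (chromosome 4, 156199424 to 156200818), a ubiquitin-like modifier, was at 35.9, 39.3, 37.1 and 14.8 CPM in pregnant uterine Treg, against 10.6, 10.7, 8.49 and 10.9 CPM in non-pregnant uterine Treg. Here too every pregnant library lay above every non-pregnant one (log2 fold change 1.70 ± 0.54, 95% interval 0.57 to 2.82, unadjusted p = 0.0052). Usp18, the protease that removes ISG15 and dampens the interferon receptor, was at 31.9, 41.2, 67.2 and 40.01 CPM in pregnant and 17.7, 13.5, 21.2 and 29.7 CPM in non-pregnant uterine Treg, again without overlap on CPM. Scaled on genes above background, Usp18 was at 42.3 to 109.7 in pregnant and 17.5 to 56.6 in non-pregnant uterine Treg, which overlapped.

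Rtp4 (chromosome 16, 23520291 to 23614222), a receptor transporter that interferon raises, was at 139, 95.7, 141 and 61.3 CPM in pregnant uterine Treg, against 32.9, 41.7, 53.5 and 20.3 CPM in non-pregnant uterine Treg, with no overlap. Its log2 fold change was 1.60 ± 0.35 (95% interval 0.86 to 2.33; unadjusted p = 0.000231, adjusted p = 0.316, edgeR). Irf7 (chromosome 7, 141262706 to 141266481), the transcription factor that amplifies type I interferon, was at 295, 133, 291 and 127 CPM in pregnant and 119.98, 126, 79.4 and 78.2 CPM in non-pregnant uterine Treg (log2 fold change 1.13 ± 0.32, unadjusted p = 0.00235). The Irf7 groups did not overlap, although pregnant uterine Treg 2 and 4 lay just above non-pregnant uterine Treg 2. Irgm1, an interferon-induced GTPase, was at 213, 154, 177 and 238 CPM in pregnant and 132, 84.1, 98.5 and 118 CPM in non-pregnant uterine Treg, without overlap. Trim30a and Bst2, an E3 ligase and the virus-tethering protein tetherin, had log2 fold changes of 1.45 ± 0.52 and 1.12 ± 0.41, with overlap on CPM and none on scaled levels. Outside the list, Cmpk2, a mitochondrial nucleotide kinase induced by interferon, was at 64.6, 72.1, 129 and 47.8 CPM in pregnant and 27.96, 11.4, 25.9 and 32.7 CPM in non-pregnant uterine Treg. Oas3, which makes the activator of RNase L, was at 67.1, 38.03, 101 and 43.1 CPM in pregnant and 24.8, 19.2, 11.9 and 27.7 CPM in non-pregnant uterine Treg. Cmpk2 and Oas3 were taken from genes chosen for having no overlap between the groups, so their lack of overlap was set by that choice.

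**Figure D2:**
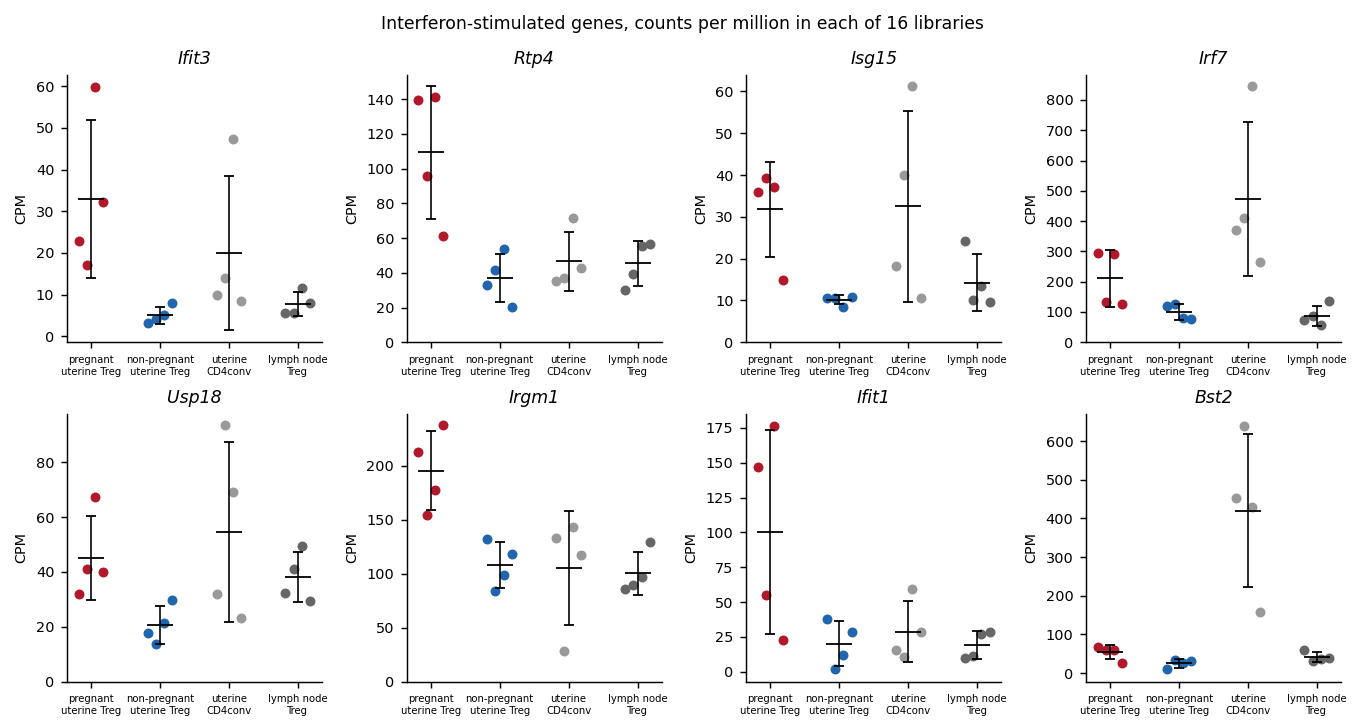
CPM (vertical axis, linear) of 8 interferon-stimulated genes in each of 16 libraries; points are libraries, the bar is the mean and the whiskers the SD over 4. In Ifit3, Rtp4, Isg15, Irf7, Usp18 and Irgm1 the 4 pregnant libraries lie above the 4 non-pregnant ones, while CD4conv reaches 844 CPM for Irf7.

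The letters GAAA, then any 2 bases, then GAAA, which the factors of type I interferon signalling are known to bind, were looked for on both strands in the 250 bases before the start of each gene in RefSeq (GRCm38.p6). The promoter table matched 21 of the 30 members, and 12 of these (57.1%) held the letters, against 936 of 27025 genes of the table (3.46%) and 151 of 3780 matched genes above background (3.99%). The promoters below belong to members at an unadjusted p under 0.05 whose window holds the letters and lies outside the annotated span of the member itself. Overlap of the windows with other annotated genes was not checked. Capitals mark the matches, which overlap each other in Isg15 and Bst2. A match describes the sequence and says nothing of binding in these cells.
Ifit3 promoter, chr19:34583279-34583528, plus strand: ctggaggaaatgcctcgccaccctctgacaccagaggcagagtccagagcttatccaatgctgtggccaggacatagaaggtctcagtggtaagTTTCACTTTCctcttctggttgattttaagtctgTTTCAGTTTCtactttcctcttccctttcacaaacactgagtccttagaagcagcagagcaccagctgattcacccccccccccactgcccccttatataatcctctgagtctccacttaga
Isg15 promoter, chr4:156200819-156201068, minus strand: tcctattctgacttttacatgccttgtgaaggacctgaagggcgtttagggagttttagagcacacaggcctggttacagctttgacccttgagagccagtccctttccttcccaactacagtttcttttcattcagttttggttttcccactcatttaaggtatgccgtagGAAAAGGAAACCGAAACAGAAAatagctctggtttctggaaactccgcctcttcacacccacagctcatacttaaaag
Trim30a promoter, chr7:104465194-104465443, minus strand: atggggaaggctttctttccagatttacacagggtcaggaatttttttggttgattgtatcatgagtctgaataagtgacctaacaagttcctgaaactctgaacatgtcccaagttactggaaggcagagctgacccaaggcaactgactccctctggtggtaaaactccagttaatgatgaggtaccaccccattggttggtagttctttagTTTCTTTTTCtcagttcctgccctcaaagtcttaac
Bst2 promoter, chr8:71537473-71537722, minus strand: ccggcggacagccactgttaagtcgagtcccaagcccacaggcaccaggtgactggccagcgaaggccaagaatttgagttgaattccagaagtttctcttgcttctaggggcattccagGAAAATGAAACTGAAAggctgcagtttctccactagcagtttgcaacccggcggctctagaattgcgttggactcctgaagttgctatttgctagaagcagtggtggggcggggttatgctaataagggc
Ifit3 holds 2 matches, Isg15 3, Trim30a 1 and Bst2 2 in these windows. Another RefSeq window of Trim30a, chr7:104446126-104446375, holds 0 matches and overlaps the annotated gene. A gene with several windows was counted as holding the letters if any of them did.

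**Figure D3:**
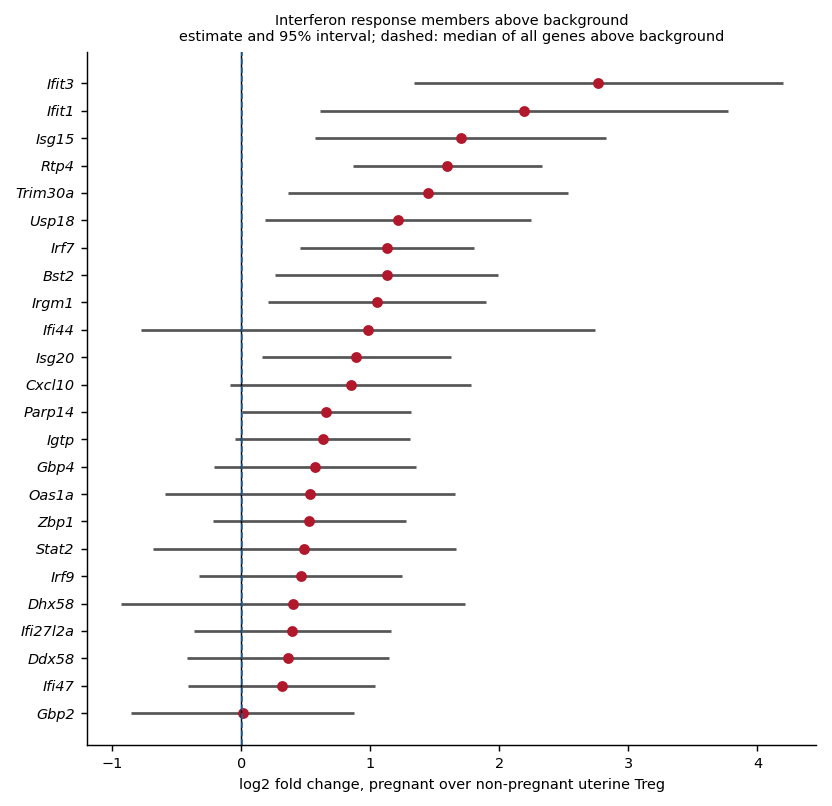
Log2 fold change of pregnant over non-pregnant uterine Treg (horizontal axis) for 24 of the 25 interferon response members above background; points are edgeR estimates and lines 95% intervals. The interval lies above 0 in 11 of the 24 and reaches it in 13, and the lowest estimate is 0.0097 for Gbp2.

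The other groups of each batch were set beside the interferon members. The summed CPM of the 30 members was 4099, 3183, 4577 and 2011 in pregnant and 2609.5, 2644, 2089.7 and 1698 in non-pregnant uterine Treg. CD4conv, of the same batch as the pregnant libraries, summed to 2356 to 4623 CPM, a range that takes in 3 of the 4 pregnant and 2 of the 4 non-pregnant sums. Macrophage and dendritic cell markers summed to 1846 to 23894 CPM in CD4conv, above every uterine Treg library (at most 1369.95 CPM), so that CD4conv also differs in the cells it holds. Lymph node Treg, of the batch of the non-pregnant libraries, summed to 2135 to 2466 CPM. Irf7 was at 265 to 844 CPM and Bst2 at 158 to 639 CPM in CD4conv, above every non-pregnant uterine Treg library, whereas Rtp4 was at 35.4 to 71.6 CPM and Irgm1 at 27.96 to 144 CPM. Among the 25 members above background, 4 had all 4 CD4conv libraries above all non-pregnant uterine Treg libraries, beside 6.90% of genes above background. By group means, CD4conv lay above non-pregnant uterine Treg in 15 of the 25, beside 55.7%. In 5 of the 25, all 4 lymph node Treg libraries lay below all pregnant ones, beside 2.33%. In these sums the parts of batch, cell type and pregnancy were not separable. Without pregnant uterine Treg 3 and 4, the libraries richest in vessel transcripts (below), the list's median was 0.84 over all genes and 0.71 above background, with 8 of 25 members higher at an unadjusted p under 0.05, beside 1.69% of the genes in that fit. Without pregnant uterine Treg 3 alone the median over all genes was 0.49. Macrophage and dendritic cell markers, whose cells also respond to interferon, summed to 189, 253, 519 and 364 CPM in pregnant and 504, 318, 452 and 1369.95 CPM in non-pregnant uterine Treg, with overlap and with the highest sum in non-pregnant uterine Treg 5. Between 0 and 3 of the 18 markers were at 0 in each library.

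Core Treg genes held no member past the unadjusted threshold. Of 18 core Treg genes, 11 had a positive log2 fold change, beside 56.5% of all genes. At an unadjusted p under 0.05, 0 were higher and 0 lower (background 1.77% and 0.96%). Their median was 0.13 over all genes and 0.04 above background. Ctla4, the inhibitory receptor, was at 2437, 1300.4, 1703 and 385 CPM in pregnant and 1549, 2105, 1176 and 769.6 CPM in non-pregnant uterine Treg (log2 fold change 0.07, 95% interval -0.65 to 0.79). Ikzf2, which encodes the Treg transcription factor Helios, had a log2 fold change of 0.04 (95% interval -0.47 to 0.55) and Tnfrsf9, the costimulatory receptor 4-1BB, 0.39 (-0.13 to 0.92). The member furthest to the other side was Lrrc32, whose product GARP holds latent TGF-beta at the Treg membrane, at 369, 116, 380.1 and 72.5 CPM in pregnant and 534, 687, 409 and 368 CPM in non-pregnant uterine Treg (log2 fold change -1.13 ± 0.73, 95% interval -2.68 to 0.41). The plain CPM of the groups overlapped, and scaled levels of 199 to 506 in pregnant and 701 to 887 in non-pregnant uterine Treg did not.

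Among 23 genes of effector and tissue Treg, 2 were higher at an unadjusted p under 0.05 over all genes and 0 lower (background 1.77% and 0.96%); above background 3 of 19 were higher and 2 lower (3.66% and 2.71%). Il1rl1 (chromosome 1, 40429570 to 40465415), which encodes ST2, the receptor through which tissue Treg sense interleukin 33, was at 218, 113, 189 and 84.5 CPM in pregnant and 93.4, 90.1, 57.3 and 32.2 CPM in non-pregnant uterine Treg. Its log2 fold change was 1.24 ± 0.33 (95% interval 0.56 to 1.92; unadjusted p = 0.00124, adjusted p = 0.652, edgeR). The groups met only where pregnant uterine Treg 4 fell below the 2 highest non-pregnant libraries. Scaled on genes above background, Il1rl1 was at 213 to 290.1 in pregnant and 61.3 to 133 in non-pregnant uterine Treg, without overlap. CD4conv of the first batch had 20.4 to 46.3 CPM and lymph node Treg of the second 17.9 to 44.999 CPM, both below every pregnant library. Gzmb, the cytotoxic protease granzyme B that activated Treg also use, was at 135, 82.3, 154 and 84.8 CPM in pregnant and 89.5, 26.2, 45.8 and 8.41 CPM in non-pregnant uterine Treg (log2 fold change 1.55 ± 0.59, unadjusted p = 0.0166), and at 3.98 to 34.4 CPM in CD4conv. Itgae, the integrin chain CD103 that holds lymphocytes at epithelium, was at 390.5, 202, 382 and 141 CPM in pregnant and 185, 191, 119.7 and 131 CPM in non-pregnant uterine Treg (log2 fold change 0.87 ± 0.40). On CPM both genes overlapped. Scaled levels did not, at 155 to 232 in pregnant and 16.04 to 127 in non-pregnant uterine Treg for Gzmb and at 379 to 519 in pregnant and 223 to 263 in non-pregnant uterine Treg for Itgae.

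The 2 lower members above background were transcription factors (background 2.71%). Irf4, which effector Treg need, was at 172, 75.4, 164 and 20.7 CPM in pregnant and 284, 176, 160.03 and 118 CPM in non-pregnant uterine Treg (log2 fold change -0.83 ± 0.34, unadjusted p = 0.0241). Bhlhe40, a transcription factor of activated and tissue lymphocytes, was at 1009, 357, 613 and 244 CPM in pregnant and 767, 1617, 920.3 and 666 CPM in non-pregnant uterine Treg (log2 fold change -0.82 ± 0.29, unadjusted p = 0.011). Both overlapped between groups. Cd69, which keeps lymphocytes in tissue, had a log2 fold change of 0.27 ± 0.30, and Cxcr6, a receptor of tissue T cells, was at 20.8, 3.55, 10.4 and 20.99 CPM in pregnant, 0, 9.795, 10.2 and 2.47 CPM in non-pregnant uterine Treg and 26.9 to 128 CPM in CD4conv. Gata3, Klrg1, Icos and Areg, all known from tissue Treg, had log2 fold changes of -0.15, -0.34, 0.36 and -0.39, each with a 95% interval that holds 0. Amphiregulin (Areg), a growth factor of Treg-driven repair, was at 72.4, 29.9, 43.7 and 5.04 CPM in pregnant and 56.6, 80.7, 46.3 and 12.9 CPM in non-pregnant uterine Treg.

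Suppressive mediators and trophic factors showed few differences. The 16 suppressive mediators had a median log2 fold change of 0.28. Of the 7 above background Gzmb was the 1 member higher at an unadjusted p under 0.05 (background 3.66%). Of other cytotoxic genes, Ctsw, a cathepsin of cytotoxic cells, had a log2 fold change of -1.01 ± 0.34 (unadjusted p = 0.00857), and Gzmk, a granzyme, was at 9.65, 10.7, 4.81 and 6.995 CPM in pregnant and 0, 1.42, 1.27 and 4.95 CPM in non-pregnant uterine Treg. Il10, the inhibitory cytokine, was at 31.4, 32.4, 13.3 and 27.1 CPM in pregnant and 14.2, 27.8, 21.6 and 5.44 CPM in non-pregnant uterine Treg. Ebi3, a chain of interleukins 27 and 35, was at 6.87, 6.896, 7.505 and 5.04 CPM in pregnant and 3.54, 3.03, 2.55 and 4.95 CPM in non-pregnant uterine Treg, without overlap on CPM and with overlap on scaled levels (log2 fold change 1.08, 95% interval -0.49 to 2.66). Tgfb1 had a log2 fold change of -0.04 (-0.62 to 0.53). Of 24 tested growth and vessel factors the median was 0.11, and 2 were higher at an unadjusted p under 0.05 and 0 lower (background 1.77% and 0.96%). The median ran from -0.17 to 0.44 with each library left out in turn. Only 4 members were above background. Of these 0 had a positive log2 fold change, beside 50.4% of genes there, and their median was -0.51. Vegfa, the vascular growth factor, was at 0.0772, 0.418, 5.13 and 2.24 CPM in pregnant and 6.37, 3.03, 0 and 47.5 CPM in non-pregnant uterine Treg, a mean set by non-pregnant uterine Treg 5. Rln3, which encodes a hormone of the relaxin family, was at 19.5, 18.6, 18.8 and 17.6 CPM in pregnant and 32.9, 54.9, 33.5 and 7.92 CPM in non-pregnant uterine Treg (log2 fold change -0.56, -1.94 to 0.83), and at 0 to 1.64 CPM in CD4conv. The 4 pregnant libraries of Rln3 lay within 2 CPM of each other and inside the non-pregnant range. Steroid hormone receptors and targets had a median of 0.08 over 20 genes, with 0 higher and 0 lower at an unadjusted p under 0.05 (background 1.77% and 0.96%). Pgr, the progesterone receptor, was at 0.772, 15.7, 2.04 and 37.5 CPM in pregnant and 9.202, 1.96, 17.8 and 32.2 CPM in non-pregnant uterine Treg, with overlap. Tsc22d3, a leucine zipper protein that glucocorticoids induce, was at 444, 185, 339 and 145 CPM in pregnant and 220.5, 403, 202 and 196 CPM in non-pregnant uterine Treg.

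Chemokine receptors had a median log2 fold change of 0.66 over 16 genes and 0.44 over the 9 above background; 2 of 16 were higher at an unadjusted p under 0.05 and 0 lower over all genes (background 1.77% and 0.96%), and 2 of 9 were higher and 1 lower above background (3.66% and 2.71%). Ccr2, the receptor for CCL2 that brings cells to inflamed tissue, was at 458, 304, 644 and 146 CPM in pregnant and 241, 249, 166 and 99.97 CPM in non-pregnant uterine Treg (log2 fold change 1.07 ± 0.34, unadjusted p = 0.00539). CD4conv of the first batch had 259 to 772 CPM, above every non-pregnant uterine Treg library, and lymph node Treg 61.9 to 77.1 CPM. Ccr4, a receptor of skin- and tissue-homing Treg, was at 142, 79.2, 111 and 54.6 CPM in pregnant and 60.5, 66.1, 43.3 and 41.6 CPM in non-pregnant uterine Treg (log2 fold change 0.94 ± 0.36, unadjusted p = 0.0174), against 8.94 to 45.6 CPM in CD4conv. Ccr2 and Ccr4 overlapped on CPM through pregnant uterine Treg 4 alone, and did not overlap on scaled levels, where Ccr4 was at 147 to 188 in pregnant and 79.2 to 86.1 in non-pregnant uterine Treg.

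Ccr10 (chromosome 11, 101172997 to 101175443), the receptor for the epithelial chemokines CCL27 and CCL28, was at 18.3, 13.8, 11.3 and 0 CPM in pregnant uterine Treg and had no count in any of the 4 non-pregnant libraries. Its mean of 10.9 ± 7.79 CPM (SD, n = 4) in pregnant uterine Treg was at least 46.4-fold higher than the 0.234 CPM that 3 counts over the non-pregnant group would give, a floor for counting error only. Pregnant uterine Treg 4 had no count either, CD4conv had 0.325 to 3.94 CPM and lymph node Treg 0 to 1.91 CPM. Gpr15, a homing receptor of Treg in the gut, was at 44.7, 33.9, 90.4 and 19.9 CPM in pregnant and 4.25, 13.2, 19.5 and 18.3 CPM in non-pregnant uterine Treg, apart by a small gap between pregnant uterine Treg 4 and non-pregnant uterine Treg 3 (log2 fold change 1.68 ± 0.74, unadjusted p = 0.0359). Receptors and factors of recirculation had 95% intervals that hold 0: Ccr7, S1pr1 and Klf2 had log2 fold changes of -0.42 ± 0.37, -0.36 ± 0.35 and -0.31 ± 0.25. The 15 genes of the naive and recirculation list had a median of 0.19.

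**Figure D4:**
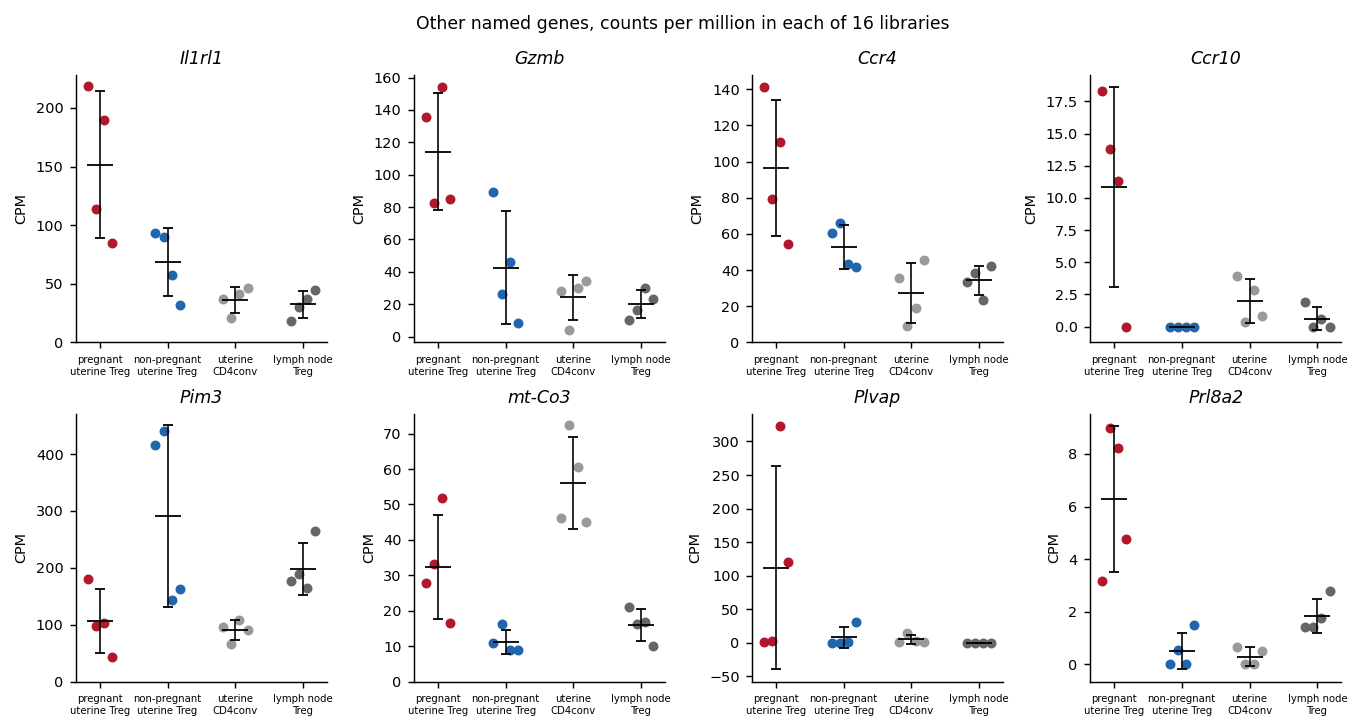
CPM (vertical axes, linear) of 8 further genes in each of 16 libraries, drawn as for the interferon genes; whiskers are the SD and may reach below 0. Il1rl1, Gzmb and Ccr4 exceed CD4conv and lymph node Treg in all 4 pregnant libraries, mt-Co3 is at 44.95 to 72.3 CPM in CD4conv of the first batch, and Plvap reaches 323 CPM in pregnant uterine Treg 3 and at most 30.7 CPM in non-pregnant uterine Treg.

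Pim3, Nol6, Nop2 and Odc1 had negative log2 fold changes with intervals below 0. Pim3 (chromosome 15, 88862186 to 88865726), a serine/threonine kinase of cytokine and antigen receptor signalling, was at 179.7, 98.4, 103 and 43.7 CPM in pregnant and 416, 441, 143 and 163 CPM in non-pregnant uterine Treg. Its log2 fold change was -1.35 ± 0.29 (95% interval -1.96 to -0.75; unadjusted p = 0.000179, adjusted p = 0.316, edgeR), the lowest p of any gene above background. The groups overlapped on CPM through pregnant uterine Treg 1, and did not on scaled levels. CD4conv of the first batch had 66.6 to 108 CPM, below every non-pregnant uterine Treg library, and lymph node Treg of the second 164 to 265 CPM. Nol6 (chromosome 4, 41114427 to 41124455), a nucleolar protein of ribosome assembly, was at 35.7, 19.02, 31.99 and 5.596 CPM in pregnant and 60.5, 111, 58.2 and 53.5 CPM in non-pregnant uterine Treg, without overlap (log2 fold change -1.62 ± 0.36, adjusted p = 0.316, edgeR). CD4conv had 32.2 to 81.3 CPM and lymph node Treg 45.4 to 84.7 CPM. Nop2, an rRNA methyltransferase, was at 8.49, 12.96, 26.4 and 4.76 CPM in pregnant and 32.2, 26.9, 42.9 and 46.03 CPM in non-pregnant uterine Treg (log2 fold change -1.55 ± 0.44). Odc1, the rate-limiting enzyme of polyamine synthesis, had a log2 fold change of -1.12 ± 0.31 (unadjusted p = 0.00189). The pregnant libraries of Nop2 all lay below the non-pregnant ones on CPM, by the narrow gap between pregnant uterine Treg 3 and non-pregnant uterine Treg 2, and overlapped on scaled levels, and those of Odc1 overlapped on CPM. Pim3, Nop2 and Odc1 were named after their values were seen.

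Cytosolic ribosomal proteins had a median of -0.23 over 78 genes, with 1 higher and 0 lower at an unadjusted p under 0.05 (background 1.77% and 0.96%). A positive log2 fold change was found in 11 of the 78, beside 56.5% of all genes. Above background it was found in 12 of 72, beside 50.4%. The median was 0.21 without non-pregnant uterine Treg 2. Immediate early and T cell receptor response genes had a median of -0.0014 over all genes and -0.19 above background, where 3 of 20 members were positive and 1 was lower at an unadjusted p under 0.05 (background 2.71%). That member was Btg2, an antiproliferative early gene, at 521, 273, 524 and 126 CPM in pregnant and 629.6, 695, 441 and 418 CPM in non-pregnant uterine Treg (log2 fold change -0.60 ± 0.22). Atf3, a stress-responsive transcription factor, had a log2 fold change of -1.32 ± 0.64 and was at 67.3 to 181 CPM in pregnant and 158 to 420.2 CPM in non-pregnant uterine Treg. The NF-kB response list had a median of 0.01 over 17 genes; its member Nfkb2, the precursor of p52, had a log2 fold change of -0.74 ± 0.26 (unadjusted p = 0.0114). Bcl2, the survival factor, was at 109, 50.8, 87.6 and 91.8 CPM in pregnant and 214, 164, 120.1 and 147 CPM in non-pregnant uterine Treg, without overlap on CPM and with overlap on scaled levels (log2 fold change -0.75 ± 0.30, unadjusted p = 0.0233).

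On the pregnant side, Fundc1 (chromosome X, 17556564 to 17572325), a receptor for the removal of damaged mitochondria, was at 34.2, 42.2, 43.98 and 54.6 CPM in pregnant and 8.14, 14.6, 14.01 and 16.3 CPM in non-pregnant uterine Treg, without overlap (log2 fold change 1.93 ± 0.42, adjusted p = 0.316, edgeR). Both other groups lay above the non-pregnant libraries: CD4conv had 23.3 to 48.6 CPM and lymph node Treg 30.8 to 38.1 CPM. Samsn1, an adaptor that restrains lymphocyte activation, was at 423, 161, 285 and 124 CPM in pregnant and 138, 123, 143 and 109.9 CPM in non-pregnant uterine Treg (log2 fold change 0.93 ± 0.23, unadjusted p = 0.000717), while CD4conv had 110.4 to 135 CPM and lymph node Treg 104 to 154 CPM. The 20 genes of cholesterol synthesis had a median of 0.44, with 1 higher at an unadjusted p under 0.05 over all genes (background 1.77%) and 1 of 6 above background (3.66%); the median ran from 0.13 to 0.64 with each library left out in turn. The one over all genes was Hmgcs1, an early enzyme of the pathway, at 55.6, 44.3, 36.01 and 48.97 CPM in pregnant and 8.49, 12.5, 29.3 and 32.2 CPM in non-pregnant uterine Treg, and at 35.2 to 48.7 CPM in CD4conv. The one above background was Sc5d, a late enzyme, with a log2 fold change of 1.08 ± 0.47, which was 0.38 without pregnant uterine Treg 4.

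Of 10 mitochondrially encoded genes above background, 3 were higher at an unadjusted p under 0.05 (background 3.66%). mt-Co3, mt-Atp6 and mt-Co2 encode subunits of cytochrome c oxidase and ATP synthase. mt-Co3 was at 27.7, 33.2, 51.8 and 16.5 CPM in pregnant and 10.97, 16.2, 8.91 and 8.91 CPM in non-pregnant uterine Treg (log2 fold change 1.60 ± 0.38, unadjusted p = 0.000508), and mt-Atp6 and mt-Co2 had log2 fold changes of 1.51 ± 0.38 and 1.52 ± 0.43. The other 7 mitochondrially encoded genes above background had log2 fold changes of 0.015 to 0.35 at mean levels of 350.1 to 1756 CPM. All 4 CD4conv libraries of the first batch also lay above every non-pregnant uterine Treg library in these 3 genes, with 44.95 to 72.3 CPM of mt-Co3. Lymph node Treg of the second batch had 10.1 to 21.1 CPM. The mouse reference genome carries a nuclear copy of this stretch of mitochondrial DNA on chromosome 1, and reads of the pair cannot be assigned with certainty. Its gene models Gm28437, Gm10925 and Gm28661, of 783, 678 and 681 exonic bases beside 784, 681 and 684 in mt-Co3, mt-Atp6 and mt-Co2, had log2 fold changes of 1.34 ± 0.62, 1.97 ± 0.55 and 1.93 ± 0.71. Gm10925 was at 61.7, 43.3, 68.9 and 24.3 CPM in pregnant and 16.6, 14.1, 10.2 and 19.3 CPM in non-pregnant uterine Treg, and at 42.4 to 68.3 CPM in CD4conv. Subunits of the respiratory chain encoded in the nucleus had a median of -0.13 over 31 genes, and 0 were higher at an unadjusted p under 0.05 (background 1.77%). A positive log2 fold change was found in 6 of the 31, beside 56.5% of all genes, and above background in 10 of 31, beside 50.4%. The median ran from -0.41 to 0.32 with each library left out in turn. Above background 2 were lower (background 2.71%), among them Ndufv1 of complex I (95% interval of the log2 fold change -1.73 to -0.04).

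Genes whose 4 pregnant and 4 non-pregnant libraries did not overlap on CPM numbered 160 higher and 150 lower over all genes tested (0.532% and 0.498%). Protein-coding genes that averaged 20 CPM or more in one of the groups made up 71 of the higher and 56 of the lower ones. The 8 with the highest fitted fold changes were Ifit3, Gpr15, Cmpk2, Slc4a2, Prickle1, Oas3, Isg15 and Wdr90. Slc4a2, an anion exchanger, was at 43.7, 28.6, 41.6 and 36.9 CPM in pregnant and 1.42, 12.3, 9.76 and 24.3 CPM in non-pregnant uterine Treg, with 24.9 to 30.1 CPM in CD4conv. Prickle1, a planar polarity protein, was at 35.96, 15.5, 43.4 and 17.6 CPM in pregnant and 2.48, 8.905, 14.01 and 14.4 CPM in non-pregnant uterine Treg, and Wdr90 had a log2 fold change of 1.78 ± 0.72. The 8 lowest were Fndc10, Mrgprb2, 1810055G02Rik, Cdc42ep4, Zfp729a, Tmem81, Gaa and Nol6. Fndc10 was at 0.849, 0.209, 4.94 and 1.96 CPM in pregnant and 36.8, 20.7, 14.9 and 14.4 CPM in non-pregnant uterine Treg (log2 fold change -3.17 ± 0.89), and the other 7 had log2 fold changes from -2.53 to -1.44. Mrgprb2, a receptor known from mast cells, was at 3.86, 11.7, 1.71 and 0 CPM in pregnant and 33.98, 16.9, 28.9 and 14.8 CPM in non-pregnant uterine Treg. On scaled levels Mrgprb2, Tmem81 and Gaa overlapped between the groups and the other 5 of the lowest did not. Of all 160 higher genes, 52 (32.5%) had all 4 CD4conv libraries above the non-pregnant ones as well, and in 40 (25.0%) all 4 lymph node Treg libraries lay below the pregnant ones. Of the 150 lower genes, these counts were 33 (22.0%) with CD4conv below the non-pregnant and 50 (33.3%) with lymph node Treg above the pregnant libraries. Over all genes tested, CD4conv lay above the non-pregnant libraries in 2.65% and below them in 1.68%, and lymph node Treg lay below the pregnant libraries in 1.62% and above them in 2.66%. Above background, 13 of 41 higher genes (31.7%) had CD4conv above the non-pregnant libraries, beside 6.90% of genes there, and 15 (36.6%) had lymph node Treg below the pregnant ones, beside 2.33%. Of the 34 lower genes above background, 2 (5.88%) had CD4conv below the non-pregnant libraries, beside 3.37%, and 18 (52.9%) had lymph node Treg above the pregnant ones, beside 8.43%. The genes were chosen on the same pregnant and non-pregnant libraries that these counts use, so the shares are descriptions, and the parts of the choice and the batch were not tested.

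**Figure D5:**
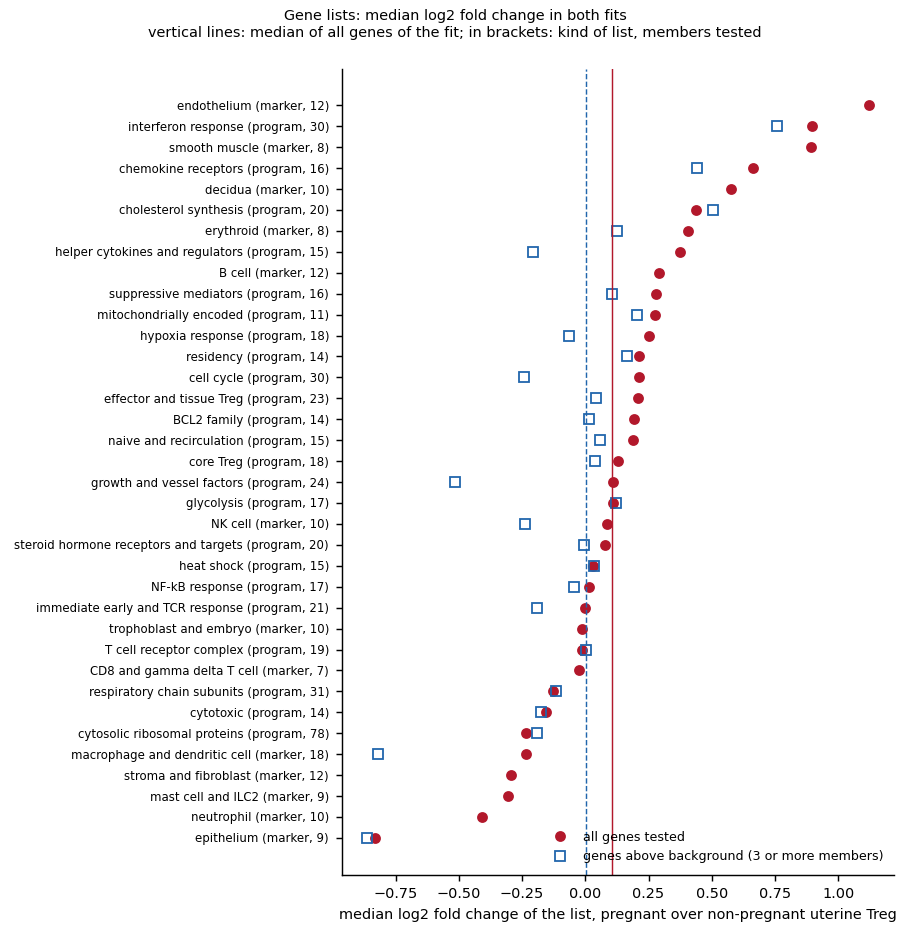
Median log2 fold change of pregnant over non-pregnant uterine Treg (horizontal axis) for 36 gene lists, in the fit over all genes (circles) and above background (squares). Vertical lines are the medians of all genes, 0.105 and 0.0035; interferon response stands at 0.90 and 0.76, and endothelium at 1.12 over all genes.

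Endothelial markers, of vessel cells that the sort should leave out, had mostly positive log2 fold changes. Of 12 endothelial markers, 11 had a positive log2 fold change, 5 were higher at an unadjusted p under 0.05 (background 1.77%) and their median was 1.12. The median was 0.55 without pregnant uterine Treg 3, and without pregnant uterine Treg 3 and 4 it was 0.078 with 0 of 12 higher. Their summed level was 309, 443, 1064 and 804 CPM in pregnant and 215, 200.4, 354 and 550.4 CPM in non-pregnant uterine Treg, highest in pregnant uterine Treg 3 and 4. Of the 12 markers, 0 or 1 were at 0 in each pregnant library and 0 to 3 in each non-pregnant one, and 7 were highest in pregnant uterine Treg 3. Plvap, a protein of fenestrated vessels, was at 0.926, 2.51, 323 and 120.3 CPM in pregnant and 0, 0, 0.849 and 30.7 CPM in non-pregnant uterine Treg. Esam, an adhesion molecule of endothelial junctions, was at 6.405, 18.6, 90.1 and 57.6 CPM in pregnant and 3.19, 4.096, 0.424 and 23.3 CPM in non-pregnant uterine Treg, and Eng, an endothelial TGF-beta co-receptor, had a log2 fold change of 2.52 ± 1.03, which was 0.91 without pregnant uterine Treg 3. Sparc, a matrix protein of vessels and stroma, was highest in the same libraries, with 4.32, 8.36, 456 and 191 CPM in pregnant and 16.99, 1.96, 12.7 and 120.3 CPM in non-pregnant uterine Treg. It belongs to the stroma and fibroblast list, which leaned the other way. Only 3 of its 12 tested members were positive, beside 56.5% of all genes, and their median was -0.29. Without pregnant uterine Treg 3 and 4 the log2 fold changes of Plvap and Sparc were -2.34 and -2.71. Acta2, the actin of smooth muscle, was at 10.1, 12.5, 31.8 and 25.2 CPM in pregnant and 0, 1.96, 9.34 and 9.404 CPM in non-pregnant uterine Treg. Dcn, a matrix proteoglycan of fibroblasts, lay the other way, at 6.71, 10.2, 7.18 and 17.9 CPM in pregnant and 36.8, 11.8, 47.97 and 233 CPM in non-pregnant uterine Treg (log2 fold change -2.69 ± 0.67, unadjusted p = 0.000436).

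Of 10 tested decidual markers 6 had a positive log2 fold change, with a median of 0.57. It turned sign without pregnant uterine Treg 2 (-0.30), without 3 (-0.15) and without 3 and 4 (-0.18). The markers summed to 33.95, 101, 117 and 68.3 CPM in pregnant and 12.03, 9.26, 88.3 and 194 CPM in non-pregnant uterine Treg. Prl8a2, a prolactin-family hormone of the decidua, was at 3.16, 8.99, 8.23 and 4.76 CPM in pregnant and 0, 0.534, 0 and 1.48 CPM in non-pregnant uterine Treg, without overlap, and at 0 to 0.656 CPM in CD4conv and 1.43 to 2.78 CPM in lymph node Treg. Of macrophage and dendritic cell markers, 6 of 18 had a positive log2 fold change, beside 56.5% of all genes, and the median was -0.24, or 0.052 without non-pregnant uterine Treg 5. Above background 1 of 12 was positive, beside 50.4%, with a median of -0.82 and 2 of 12 lower at an unadjusted p under 0.05 (background 2.71%). H2-Ab1, a chain of MHC class II, was at 21.3, 16.1, 27.98 and 11.8 CPM in pregnant and 69.7, 30.5, 56.03 and 38.1 CPM in non-pregnant uterine Treg, without overlap, and at 259 to 2342 CPM in CD4conv. Apoe, which macrophages and stroma make, was at 17.2, 12.3, 97.4 and 10.9 CPM in pregnant and 74.3, 103, 56.5 and 532 CPM in non-pregnant uterine Treg, with non-pregnant uterine Treg 5 far above the rest. That library also led the summed epithelial markers, at 890.9 CPM. The part of these other cells in the differences above was not tested. The other 9 program lists had medians of -0.16 to 0.38, with 4 of 156 tested members higher at an unadjusted p under 0.05 (2.56%) and 1 lower, beside 1.77% and 0.96% of all genes. The other 10 marker lists had medians of -0.83 to 0.89, with 4 of 95 tested members higher (4.21%) and 5 lower, beside the same shares of all genes.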

How the data were processed

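Per the labels' protocols, enriched CD4+ cells were sorted, amplified with SMART-Seq v4 and made into libraries with Nextera XT, and paired reads of 150 bp were sequenced on a NextSeq 500. Neither kit marks strand, so reads of overlapping genes on opposite strands are not separable. Per the submitters' processing notes, Trimmomatic, HISAT2, SAMtools, featureCounts and DESeq2 were used with build GRCm38; no versions are stated in the sources used. The authors deposited raw counts per gene for 49585 genes, of which GENCODE M21 named 49326; the 16 single-library files were identical to the series table.

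Counts were tested with edgeR 4.0.16 in R 4.3.3 (quasi-likelihood test, TMM, filterByExpr, robust, all 16 libraries with the group as the only term, 12 residual degrees of freedom), with Benjamini-Hochberg adjustment at 0.05. The standard error was taken as |log2 fold change|/sqrt(F). The second fit held genes whose mean share exceeded 5 times the background per exonic base of 1427 receptor genes; these 4728 genes set its library sizes. The square root of the common dispersion was 0.812 over all genes and 0.433 above background. DESeq2 1.42.0 was an alternative. Library composition was tested by exact two-sided permutation over 70 arrangements, whose smallest p is 0.0286. The fitting code was also run on simulated counts that held neither an uneven background nor a batch. The outcome of that run is not given here and bears on the code alone.

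The 36 gene lists and the genes compared were chosen with earlier results of these data known. Named genes were 5 identity genes, the 8 highest and 8 lowest fold changes among protein-coding genes without overlap between the groups and at least 20 CPM, up to 4 members of each list by lowest p at 5 CPM or more, and a fixed set. Text names are drawn from these. Pim3, Fundc1, Nop2, Samsn1, Odc1, Gpx3, Rhbdf1, Plvap, Usp18, Irgm1, Trim30a, Bst2, Ifit3b, Gm28437, Gm10925 and Gm28661 were named after their values were seen. P-values measure the spread between pools of mice, which edgeR estimated over all 16 libraries, with CD4conv and lymph node Treg among them. Floors of 3 counts and intervals of counts cover counting error only. Promoters are from RefSeq. Some genes that the rules choose are not reported here.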

Additional observations from a re-analysis of the deposited data

Results flagged for a closer look

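A library far from the other 3 of its group was looked for by the gap to its nearest neighbour over the group's range, in 212 groups of 4 values, and 16 (7.55%) passed. The cutoff lets about 1 in 20 pass for normally distributed values. CPM need not be so distributed, and many of the genes were chosen on their values, so the rate by chance here is not known. Non-pregnant uterine Treg 5 accounted for 8 of the 16. It stood above the other non-pregnant libraries in Plvap (30.7 CPM), Esam (23.3 CPM), Sparc (120.3 CPM), Dcn (232.6 CPM), Apoe (532.04 CPM), Gpx3 (428.6 CPM) and Vegfa (47.5 CPM), and in the summed epithelial markers (890.9 CPM, against 32.9 to 70.9 CPM).

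Pregnant uterine Treg 4, the library with the most background, was low in Isg15 (14.8 CPM, against 35.9 to 39.3 CPM in the other pregnant libraries) and Gaa (3.36 CPM) and high in summed trophoblast and embryo markers (328.8 CPM, against 26.6 to 77.3 CPM). The same markers summed to 19.6 to 395.9 CPM in non-pregnant uterine Treg, with non-pregnant uterine Treg 5 above every pregnant library. Pregnant uterine Treg 3 was high in Apoe (97.4 CPM, against 10.9 to 17.2 CPM). Pregnant uterine Treg 2 was high in summed CD8 and gamma delta T cell markers (51.8 CPM, against 23.2 to 27.98 CPM). Non-pregnant uterine Treg 3 was low in Isg15 (8.49 CPM, against 10.6 to 10.9 CPM). Non-pregnant uterine Treg 2 was high in Nol6 (111.1 CPM, against 53.5 to 60.5 CPM) and in Tsc22d3 (403.2 CPM, against 196.5 to 220.5 CPM).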

How the results depend on the processing

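The count of 0 higher and 0 lower genes with edgeR held under RLE scaling, other filters, other background thresholds, the 8 uterine Treg libraries alone, the background share as a covariate and each library left out (0 to 0). DESeq2 gave 7 higher and 11 lower over all genes and 5 and 2 above background; without the 4 uterine Treg libraries over 30% background, edgeR gave 3 and 1 over all genes and 1 and 0 above background (Gpx3). Of the named genes outside the second fit, DESeq2 called Ccr10, Fndc10 and Rhbdf1. The interferon median stayed between 0.49 and 1.16 over 18 fits of all genes and between 0.61 and 0.87 over 19 fits above background, with 3 to 14 and 8 to 13 members higher at an unadjusted p under 0.05. The genes of any kind higher at that threshold also varied by fit. They ran from 101 of 23867 to 3427 of 33103 over all genes, and from 80 of 4725 to 244 of 4725 above background. The 2 counts are not set side by side for each fit here.

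Replicate numbers did not pair the libraries: correlations of deviations between the groups were 0.148, -0.074 and -0.244 for numbers 1, 2 and 3. With the replicate block 0 genes were higher and 0 lower, the interferon median was 1.13 over all genes with 29 of 30 members positive, and Cd3e (0.012) and Cd4 (0.16) turned sign.

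Of 88 named genes, 77 kept their sign under every fit. Many of them were chosen on these same libraries, by fold change, lowest p or absence of overlap, so the count is a description. The share over all genes was not computed. Leaving out 1 library gave ranges of -0.053 to 0.46 for Foxp3, -0.16 to 0.32 for Ctla4, -0.086 to 0.18 for Ikzf2, -0.38 to 0.26 for Cd4, -0.43 to 0.0013 for Cd3e, -0.19 to 0.23 for Tgfb1, -1.27 to 0.19 for Pgr and -0.35 to 5.13 for Gpx3. Without pregnant uterine Treg 3 and 4, an alternative chosen after seeing the data, Plvap was at -2.34, Sparc -2.71, Gpx3 -0.97 and Areg 0.040. Without the 4 libraries over 30% background Cd4 was at 0.10 and Ikzf2 at -0.16, at 2 times the background Ikzf2 was at -0.0424, and over all genes Cd4 was at 0.19. The cause was not tested.

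List medians that moved beyond 1 SD of the libraries, as ranges over libraries left out, were chemokine receptors (0.55 to 1.03; 0.37 without pregnant uterine Treg 3 and 4; 0.44 above background), ribosomal proteins (-0.50 to 0.21), macrophage and dendritic cell (-0.96 to 0.052; -1.02 without pregnant uterine Treg 3 and 4), mitochondrially encoded (0.072 to 0.58), steroid (-0.22 to 0.27) and suppressive mediators (-0.013 to 0.61). Medians that turned sign within 1 SD were core Treg (-0.22 to 0.37), effector and tissue Treg (-0.02 to 0.52), naive and recirculation (-0.15 to 0.51), growth and vessel factors (-0.17 to 0.44), immediate early and T cell receptor response (-0.45 to 0.29), NF-kB response (-0.35 to 0.43), respiratory chain subunits (-0.41 to 0.32) and decidua (-0.30 to 1.12). Differences in library composition, pregnant minus non-pregnant, ranged from -0.017 to 0.116 percentage points for the mitochondrial share, -0.268 to 0.366 for the receptor share and -0.801 to 0.954 for the 50 highest genes. The shallowest library held 2020507 counts and background reached 53.6%, which limits what low genes can show.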

Other observations

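Gpx3, a secreted glutathione peroxidase that decidua and kidney make, chosen after its values were seen, was at 127, 22.8, 241 and 123 CPM in pregnant uterine Treg, against 0.708, 2.67, 8.49 and 429 CPM in non-pregnant uterine Treg. All pregnant libraries exceeded 3 of the 4 non-pregnant ones, and non-pregnant uterine Treg 5 had the highest level of all. CD4conv had 2.48 to 13.2 CPM and lymph node Treg 0.953 to 4.07 CPM. Its log2 fold change was 0.07 with all libraries and 5.13 without non-pregnant uterine Treg 5. Without the 4 uterine Treg libraries over 30% background it was 6.66, with an adjusted p of 0.0273 (edgeR).

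Rhbdf1, an inactive rhomboid that steers growth factor shedding, was at 0.231, 0.209, 0 and 0 CPM in pregnant uterine Treg, against 40.3, 0.356, 13.6 and 5.44 CPM in non-pregnant uterine Treg. The groups did not overlap, but 1 non-pregnant library lay near the pregnant ones (unadjusted p = 8.6e-05, adjusted p = 1.00, edgeR, over all genes). CD4conv had 0.391 to 4.83 CPM and lymph node Treg 0.758 to 2.91 CPM.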
